A study of Mus musculus with 5 samples.

Results

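The genes described here are 10 core genes of the Notch pathway: the receptors Notch1, Notch2, Notch3 and Notch4, the ligands Jag1, Jag2, Dll1 and Dll4, and the target genes Hes1 and Hey1. They were chosen by name among 21631 protein-coding genes of RefSeq, with earlier results of these data known. Coordinates are those of mm10 (GRCm38.p6) throughout. For each gene, all NKX2-1 peaks were collected whose summit lay inside the gene or within 20 kb of it. Peaks of different antibodies that shared 1 bp or more were joined into 1 region, and regions were sorted by how many of the 4 antibodies had a peak there. Of 68919 merged regions in the genome, 97 lay near the 10 genes, and 45 of these held a peak of all 4 antibodies and are called four-antibody regions below.

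NKX2-1 is a homeodomain protein that binds DNA in cells of the lung epithelium and thyroid. Its binding was measured by chromatin immunoprecipitation and sequencing (ChIP-seq) in whole lung tissue at postnatal day 10 (wild-type mice), with the antibodies Abcam133737, Millipore07-601, Abcam76013 and Abcam133638 in separate libraries and 1 input library of chromatin before precipitation. The title of the series sets it in work on NKX2-1 in alveolar type 1 (AT1) cells, the flat cells of gas exchange. All groups carry the wild-type genotype and no treatment is named. Each antibody has 1 library and, per the labels' protocol, chromatin was pooled, so the 4 values of a region are 4 antibodies on what may be 1 preparation with a shared input, not replicate animals. No p-value is given, and a standard deviation (SD) below is the spread over the 4 antibodies. Whole lung mixes epithelial, endothelial, mesenchymal and immune cells, and these peaks do not tell in which of them a region was bound.

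Notch receptors sit in the cell membrane and are activated by ligands of the Jagged and Delta-like families on a neighbouring cell. Cleavage by gamma-secretase then frees the intracellular part of the receptor, which enters the nucleus, joins the DNA-binding protein RBPJ and a Mastermind coactivator, and turns on genes such as those of the Hes and Hey families of repressors. In the lung the pathway is known for choosing between secretory and ciliated fates in the airway, for smooth muscle around vessels and for the making of alveoli, while Notch4 and Dll4 are best known from endothelium.

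The promoter sequences that carry a peak are shown first, because they are where binding and the start of a Notch gene coincide. The RefSeq table of promoters gives 300 bases for each start, 250 before it and 50 after, and held 8 of the 10 genes with 9 windows, all but Hes1 and Hey1. The windows of Notch2 and Jag1 were overlapped by peaks of 4 antibodies. That of Notch1 was overlapped by peaks of 3 (not Abcam76013), and that of Dll4 by peaks of 2 (Abcam76013 and Abcam133638). Those of Notch3, Notch4, Jag2 and Dll1 were overlapped by none. The 250 bases before the start follow, 5′ to 3′ on the strand of the gene, with capitals from the first to the last antibody summit that fell within them. Gm40103 is a RefSeq gene that starts inside Notch2 on the opposite strand, and Ager, the AT1 marker gene that encodes the receptor RAGE, lies beside Notch4. They are shown as the neighbouring starts with the highest mean folds among those where all 4 summits of a four-antibody region fell within the 250 bases. The same held for Chac1 beside Dll4 and a start of Fam120b near Dll1, which are not printed.
Notch1: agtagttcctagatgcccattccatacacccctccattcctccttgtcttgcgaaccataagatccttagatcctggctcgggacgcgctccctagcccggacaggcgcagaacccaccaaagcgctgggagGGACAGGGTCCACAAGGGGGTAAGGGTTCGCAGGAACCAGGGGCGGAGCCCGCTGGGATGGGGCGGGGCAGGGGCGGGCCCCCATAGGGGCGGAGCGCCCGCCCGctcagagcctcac
Notch2: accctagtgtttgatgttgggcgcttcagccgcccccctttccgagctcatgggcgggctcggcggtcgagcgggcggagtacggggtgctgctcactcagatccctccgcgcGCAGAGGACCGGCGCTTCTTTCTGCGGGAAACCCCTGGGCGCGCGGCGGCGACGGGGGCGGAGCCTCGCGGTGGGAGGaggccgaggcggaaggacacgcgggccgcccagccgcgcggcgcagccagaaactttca
Gm40103: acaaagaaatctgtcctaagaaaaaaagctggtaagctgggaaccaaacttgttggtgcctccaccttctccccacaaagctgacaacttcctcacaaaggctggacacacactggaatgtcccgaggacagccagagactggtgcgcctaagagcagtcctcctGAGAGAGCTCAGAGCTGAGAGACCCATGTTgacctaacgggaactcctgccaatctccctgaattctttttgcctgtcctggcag
Jag1: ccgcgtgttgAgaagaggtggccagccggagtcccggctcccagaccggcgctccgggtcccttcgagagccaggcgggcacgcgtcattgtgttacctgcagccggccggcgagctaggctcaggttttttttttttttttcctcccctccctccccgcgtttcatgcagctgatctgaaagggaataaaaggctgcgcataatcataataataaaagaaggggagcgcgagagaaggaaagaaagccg
Dll4: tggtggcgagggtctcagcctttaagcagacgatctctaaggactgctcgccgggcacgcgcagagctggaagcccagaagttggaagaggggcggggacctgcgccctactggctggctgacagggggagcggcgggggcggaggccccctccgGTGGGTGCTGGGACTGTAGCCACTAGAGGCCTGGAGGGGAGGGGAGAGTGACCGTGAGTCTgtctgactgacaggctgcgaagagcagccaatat
Ager: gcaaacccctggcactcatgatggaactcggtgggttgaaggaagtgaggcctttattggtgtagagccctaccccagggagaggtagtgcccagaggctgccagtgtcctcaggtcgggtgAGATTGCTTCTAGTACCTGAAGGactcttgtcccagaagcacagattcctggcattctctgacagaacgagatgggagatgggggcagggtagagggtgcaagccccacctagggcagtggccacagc

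These stretches are chr2:26503823-26504072 on the minus strand for Notch1, chr3:98013288-98013537 on the plus strand for Notch2, chr3:98026109-98026358 on the minus strand for Gm40103, chr2:137116521-137116770 on the minus strand for Jag1, chr2:119325534-119325783 on the plus strand for Dll4 and chr17:34597600-34597849 on the plus strand for Ager. The starts of Notch1, Notch2 and Dll4 lay in stretches richer in G and C than those of Gm40103 and Ager. The G and C content was 66% for Notch1, 72% for Notch2, 57.2% for Jag1 and 65.6% for Dll4, against 51.6% for Gm40103, 57.6% for Ager and a median of 52.4% over all promoters. The printed Notch2 stretch held 34 CG pairs, while those of Gm40103 and Ager held 3 each. The unprinted starts did not share this low count: Chac1 had 15 CG pairs and a G and C content of 60.8%, and Fam120b had 14 and 52.8%. The summits were spread to different extents. In Gm40103 all 4 summits fell between bases 166 and 195 of the printed stretch, and in Ager between bases 123 and 145. They were between bases 168 and 226 in Fam120b and more widely spread in Chac1, between bases 9 and 221. In Notch2 only 3 summits fell within the window, between bases 114 and 191. In Jag1 only the Millipore07-601 summit fell within it, at base 11, with the other antibodies' summits further from the gene.

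The promoter windows were searched on both strands for CACTNNAG, a loose pattern with free bases (N) used here for the NKX2 family. They were also searched for CACTTG, and for TGGGAA, the core bound by RBPJ. Of the 9 windows of the Notch genes, only that of Dll4 held any of them. It held CACTAGAG at bases 176 to 183 of the printed stretch (chr2:119325709-119325716), inside the capitals. TGGGAA was present in Gm40103, at bases 38 to 43, and in Ager, at bases 280 to 285 of the window, past the printed stretch, and on the opposite strand in Fam120b, at bases 31 to 36 of its window. Such matches are common, since CACTNNAG was in 16.0% of all 32851 promoter windows, CACTTG in 13.6% and TGGGAA in 25.6%. In the 5113 windows that held the summit of a four-antibody region the shares were 17.8%, 12.0% and 24.4%. A window without a match says only that these letters are not in it.

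The peak lists of Abcam133737 and Abcam76013 held 40877 and 41296 peaks, and those of Millipore07-601 and Abcam133638 held 57763 and 57891, from 43031331 to 46547989 filtered tags each, against 10653749 for the input. A call needed a summit pileup of at least 12 or 13 tags, depending on the library, so weaker binding was not detectable at this depth. The fold of a peak is the authors' ratio of its pileup to a background, either local from the input or the genome-wide value of the library. In 28 of the 45 four-antibody regions near the Notch genes, the background of all 4 antibodies was the genome-wide value. There the fold is the pileup against 1 constant per library. As a check of the tissue, genes of lung epithelium carried 4 to 11 four-antibody regions each, against a median of 1 over all genes. The gene was the nearest one for 2 of 11 near Sftpc, 1 of 7 near Ager and 2 of 4 near Scgb1a1. It was the nearest for all 8 near Nkx2-1, all 6 near Sftpb and all 4 near Aqp5. The best mean fold was 34.7 near Sftpc and 27.1 near Sftpb, both surfactant genes of type 2 cells, 24.1 near Aqp5 and 19.2 near Ager of AT1 cells, 19.7 near Scgb1a1 of the airway and 23.5 near Nkx2-1 itself. Cdh5, Ptprc, Alb, Neurod1 and Ttr, genes of endothelium, leukocytes, liver, neurons and choroid plexus, were without a peak of any antibody in the same window. Each is a single gene, which does not show that other genes of its cell type lack regions. Among mesenchymal genes, Pdgfra and Tcf21 had no four-antibody region, while Acta2 had 1, nearest to it, with a mean fold of 5.56.

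All 10 Notch genes had 1 or more peaks within 20 kb, as did 76.7% of all protein-coding genes. A four-antibody region lay near 8 of the 10, against 64.8% of all genes. The exceptions were Jag2 and Hey1. For 6 of the 10 (Notch1, Notch2, Notch3, Jag1, Dll4 and Hes1) at least 1 such region had the Notch gene as its nearest protein-coding gene, against 50.0% of all genes. Counts of 8 and 6 out of 10 genes are close to what the background shares give.

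Binding was uneven among the 10 genes. Of the 45 four-antibody regions, 24 lay near Notch2 and Hes1 and 21 near the other 8 genes. The 10 gene windows together held 6.12 four-antibody regions per 100 kb, and 4.07 without Notch2 and Hes1 (left out after the counts were seen), against 2.28 per 100 kb over the windows of all genes. The median window was 63.1 kb for the 10 genes and 57.3 kb for all genes. These rates pool the windows, so very long windows with few regions lower the rate of all genes. Taken as a median over genes, the values were 4.91 per 100 kb for the 10 genes and 1.80 for all genes. Counted per gene, the median was 4 four-antibody regions for the Notch genes and 1 for all genes. In the split by antibody the Notch regions were like the rest of the genome: 46.4% of the 97 regions had all 4 antibodies, against 45.9% of all merged regions, while 13 had 3, 15 had 2 and 24 had 1.

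**Figure D1:**
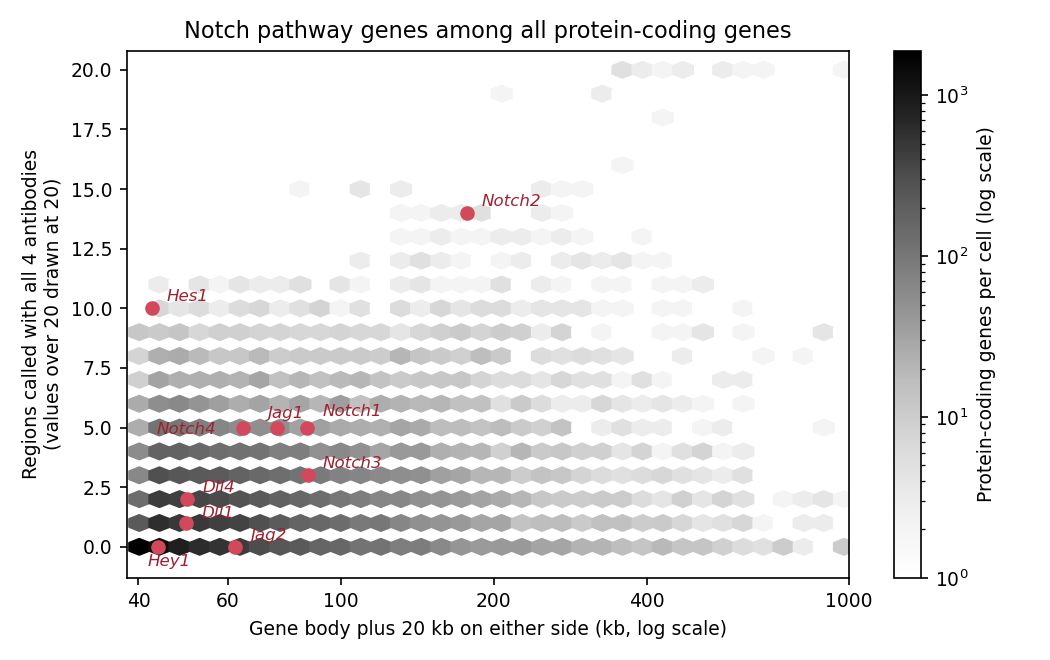
Number of four-antibody regions within 20 kb of a gene (vertical axis, regions) against the length of the gene plus 20 kb on either side (horizontal axis, kb, log scale), for 21631 protein-coding genes as grey cells and for the 10 Notch pathway genes as red points. Hes1, with 10 regions in a 42.4 kb window, and Notch2, with 14 in 177 kb, lie at the upper edge of genes with windows of their size, and Jag2 and Hey1 lie at 0.

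The strength of the regions was also like that of the genome. The mean over the 4 antibodies of the fold ranged from 4.09 to 27.0 over the 45 regions, with a median of 6.93, against 7.14 for all 31606 four-antibody regions. Mean folds of at least 15.3 mark the strongest 10% of all four-antibody regions, a bound set after the values were seen. Such a region lay within 20 kb of 4 of the 10 genes (Notch1, Notch2, Notch4 and Hes1), against 14.0% of all genes. The region near Notch4 belonged by distance to Ager, so 3 of the 10 genes were themselves the nearest gene of a strongest region, against 9.24% of all genes. These counts of 4 and 3 were not tested and not corrected for the number of regions per gene (median 4 against 1). By region, 5 of the 45 were in this class, near the 10% that defines it.

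**Figure D2:**
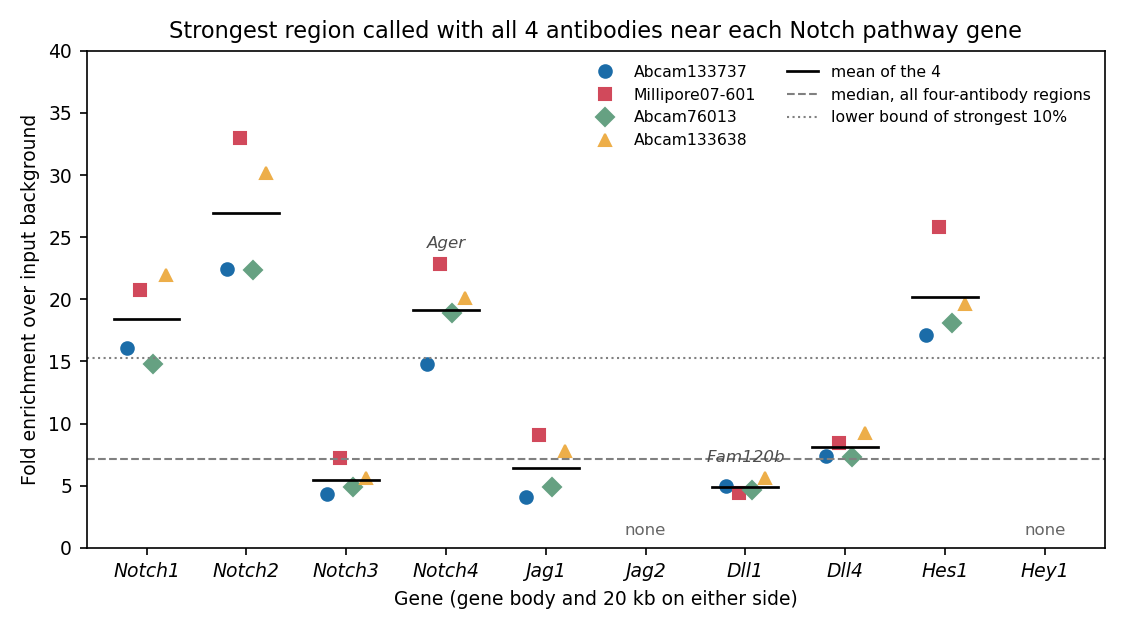
Fold enrichment (vertical axis, ratio of pileup to input background) of the strongest four-antibody region near each of the 10 genes, with 1 symbol per antibody and a bar for their mean; the dashed line is the median of all four-antibody regions (7.14) and the dotted line the lower bound of the strongest 10% (15.3). All 4 antibodies lay above the dotted line at Notch2 and Hes1, and all lay below it at Notch3, Jag1, Dll1 and Dll4; the Notch4 and Dll1 regions are nearest to Ager and Fam120b.

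Among the receptors, Notch2 had the most binding. Notch2 is a broadly expressed receptor, known in the lung from airway epithelium. Its 177 kb window (gene at chr3:98013538-98150367) held 25 regions, of which 14 had all 4 antibodies, 4 had 3, 2 had 2 and 5 had 1. Only 122 of 21631 genes (0.564%) had as many four-antibody regions, although per 100 kb the value of 7.92 was reached by 8.10% of genes.

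Its strongest region, at chr3:98056247-98056706, lay inside the gene, 42.9 kb after the start. The summit pileup was 108 tags with Abcam133737, 155 with Millipore07-601, 109 with Abcam76013 and 139 with Abcam133638. The folds were 22.4, 33.0, 22.3 and 30.2 in the same order, with a mean of 27.0 ± 5.44 (SD). All 4 antibodies were far above the median region, and the 4 summits lay within 14 bp of each other. By mean fold it was number 472 of 31606. The next were chr3:98050290-98051115, 37.2 kb after the start, with a mean fold of 15.2 ± 3.28, and chr3:98024311-98024914, 11.1 kb after the start, with 13.0 ± 1.37. Both are also inside the gene, as were 11 of the 14 four-antibody regions. The region over the printed Gm40103 stretch, chr3:98025967-98026351, had a mean fold of 9.39 ± 0.99. At the Notch2 start itself binding was weaker: the region chr3:98013036-98013888, over the printed promoter, had folds of 5.35, 6.35, 4.06 and 8.84. A neighbouring region, chr3:98014008-98014363, 0.64 kb after the start, had a mean fold of 8.38 ± 1.97. Of the 14 regions, 13 had Notch2 as nearest gene, and the other, beyond the far end of the gene, was nearer to Adam30.

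Notch1, the receptor most studied in cell fate choice, had 13 regions in its window (gene at chr2:26457902-26503822), of which 5 had all 4 antibodies, 3 had 3, 3 had 2 and 2 had 1. The strongest, at chr2:26458314-26458693, was at the opposite end of the gene from its start, 0.60 kb inside the lower-coordinate end and 45.3 kb after the start. Pileups were 77 tags with Abcam133737, 97 with Millipore07-601, 72 with Abcam76013 and 101 with Abcam133638. The folds of 16.1, 20.7, 14.8 and 22.0 gave a mean of 18.4 ± 3.49. It was number 1891 of 31606, and its 4 summits lay within 8 bp, the smallest spread of any of the regions near the 10 genes with 1 peak per antibody.

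The next region of Notch1, chr2:26482101-26482657, lay 21.6 kb after the start. Pileups were 51, 90, 57 and 58 tags with Abcam133737, Millipore07-601, Abcam76013 and Abcam133638, and the folds were 5.34, 18.1, 10.8 and 12.7. Abcam133737 had the lowest fold although its pileup was near those of Abcam76013 and Abcam133638. The background recovered from its pileup and fold was 8.74 tags there, 2.26 times the genome-wide value of that library. It was 4.04, 4.36 and 3.64 tags for the other libraries, the last being the genome-wide value. All 4 libraries share 1 input, scaled up, so such a difference can rest on very few input tags. At the start of Notch1 no four-antibody region was called: the region over the printed promoter, chr2:26503748-26504530, had peaks of 3 antibodies, with folds of 3.09 (Abcam133737), 5.08 (Millipore07-601) and 4.96 (Abcam133638). Another four-antibody region of the window, chr2:26444987-26446363, with a mean fold of 8.97 ± 1.90, covered the start of the neighbouring gene Sec16a.

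Notch3, a receptor of vascular smooth muscle and pericytes, had 6 regions (gene at chr17:32120820-32166896), of which 3 had all 4 antibodies. All 3 had mean folds below the genome-wide median. The strongest, chr17:32162566-32162822, lay 4.18 kb after the start, with pileups of 20, 33, 23 and 25 tags and folds of 4.32, 7.19, 4.87 and 5.60 in the order Abcam133737, Millipore07-601, Abcam76013 and Abcam133638, a mean of 5.50 ± 1.25. Only Millipore07-601 reached the genome-wide median of the mean fold. The other 2 were chr17:32119605-32119888, 1.05 kb beyond the lower-coordinate end of the gene, with a mean of 5.05 ± 0.69, and chr17:32166046-32166317, 0.69 kb after the start, with 4.45 ± 0.67.

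Notch4, a receptor of endothelial cells, had 13 regions within 20 kb (gene at chr17:34564286-34588543), and 5 of them had all 4 antibodies. None of those 5 belonged to Notch4 by distance: each was nearest to Pbx2, Ager or Agpat1, genes packed beyond its far end. Inside Notch4 only Abcam133638 gave peaks, at chr17:34587094-34587304 with 16 tags and a fold of 3.66, and at chr17:34587398-34587730 with 15 tags and a fold of 3.45. Both are close to the lowest pileup that was called. The strongest region of the window, chr17:34597467-34597967, covered the start of Ager, 9.19 kb beyond Notch4. There the pileups were 71 tags with Abcam133737, 107 with Millipore07-601, 92 with Abcam76013 and 96 with Abcam133638, and the folds were 14.8, 22.8, 18.9 and 20.1, a mean of 19.2 ± 3.33. The next were chr17:34604615-34604934 in Agpat1, with a mean of 11.3 ± 3.23, and chr17:34596060-34596501 in Pbx2, with 10.4 ± 3.11. A count by window alone therefore gives Notch4 as many four-antibody regions as Notch1, while a count by nearest gene gives Notch4 0 and Notch1 4.

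**Figure D3:**
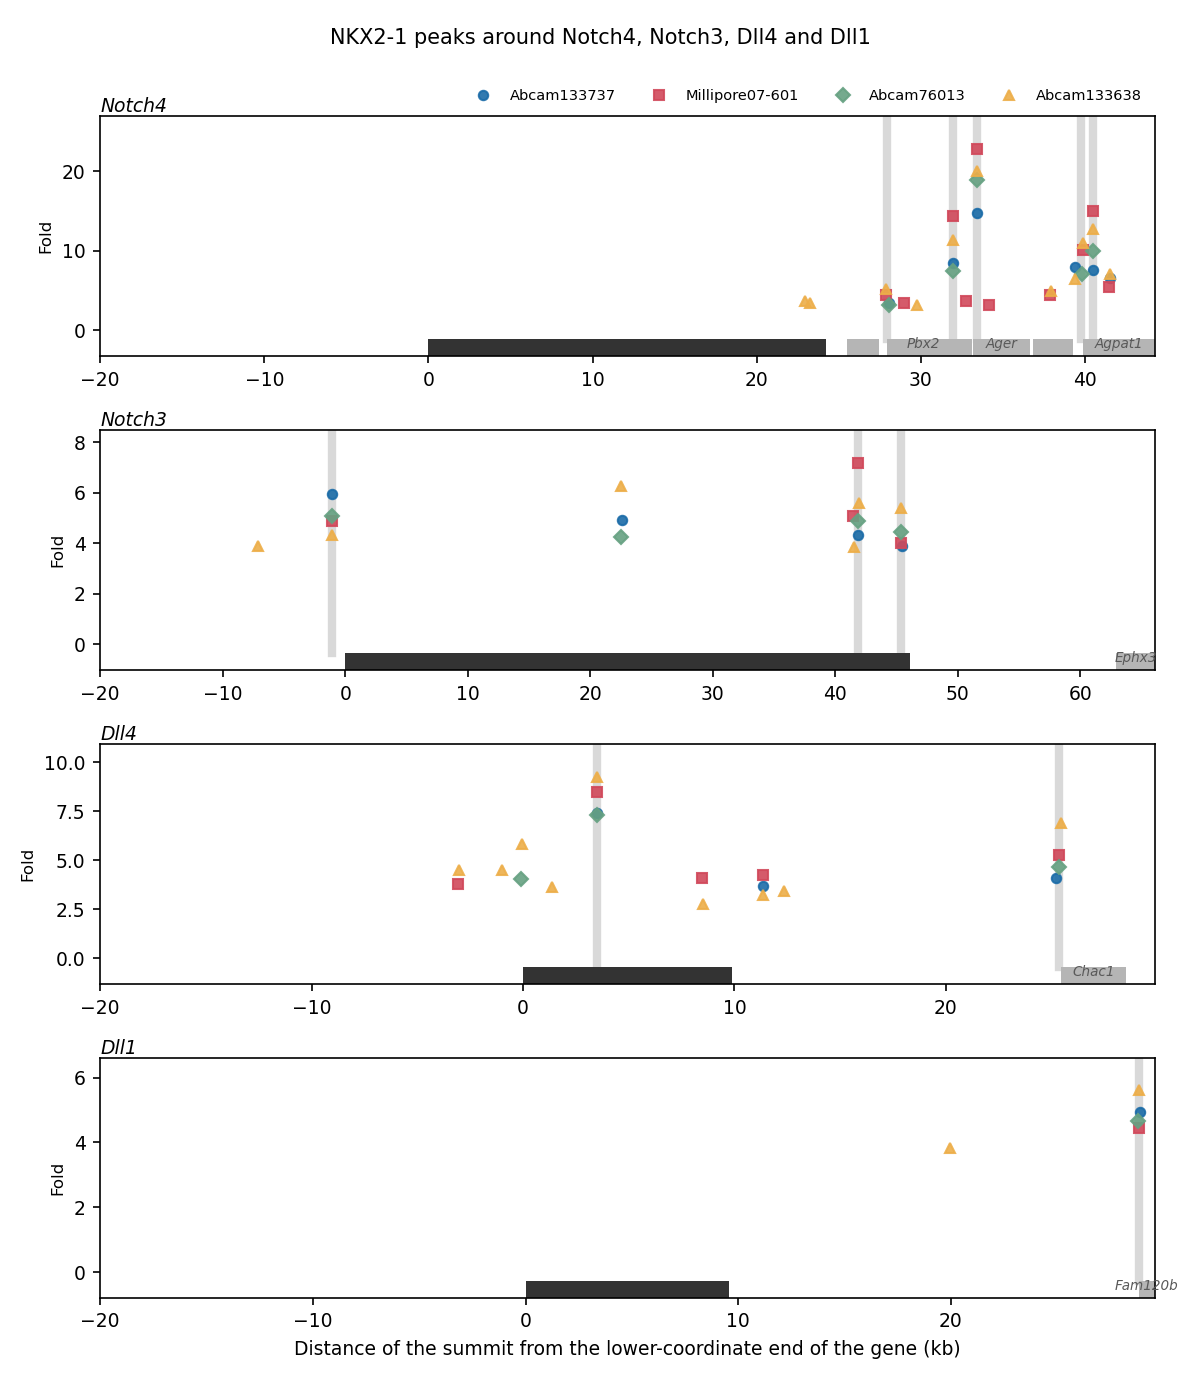
Peaks around Notch4, Notch3, Dll4 and Dll1, with the distance of each summit from the lower-coordinate end of the gene (horizontal axis, kb) against its fold enrichment (vertical axis, ratio to input background). Symbols are the 4 antibodies, grey vertical bands mark four-antibody regions, the black bar is the gene and grey bars are neighbouring genes. The 5 bands near Notch4 lie to the right of its bar, over Pbx2, Ager and Agpat1, and the band near Dll1 lies at Fam120b.

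Among the ligands, Jag1 had the most four-antibody regions. Jag1 encodes a Jagged ligand known from the development of bile ducts, vessels and airway epithelium. Its window (gene at chr2:137081451-137116520) held 9 regions, of which 5 had all 4 antibodies and all 5 were nearest to Jag1. Their mean folds ran only from 4.90 to 6.46, all below the genome-wide median of 7.14. The strongest, chr2:137116653-137117214, was 0.27 kb before the start and overlapped the printed promoter. Pileups were 19 tags with Abcam133737, 42 with Millipore07-601, 23 with Abcam76013 and 35 with Abcam133638. The folds of 4.12, 9.10, 4.87 and 7.76 gave a mean of 6.46 ± 2.36, with Millipore07-601 and Abcam133638 above the genome-wide median and the other two antibodies below it. The next were chr2:137103399-137103706 inside the gene, 13.0 kb after the start, with a mean of 6.29 ± 1.57, and chr2:137114149-137115166, 1.60 kb after the start, with 6.11 ± 0.49. The latter merged 7 peaks and spans several summits. Around the start of Jag1 peaks followed each other closely, from 1.60 kb after it to 1.05 kb before it.

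Jag2, the other Jagged ligand, had no four-antibody region (gene at chr12:112907803-112929812). The highest pileup in any of its 4 regions was 26 tags. Abcam133638 alone gave peaks at chr12:112929090-112929241 (15 tags, fold 3.45), 0.398 kb after the start, at chr12:112930230-112930430 (26 tags, fold 5.19), 0.86 kb before the start, and at chr12:112941807-112941997 (21 tags, fold 4.23), inside the neighbour Nudt14. The remaining region, chr12:112940296-112940561, also inside Nudt14, had 17 tags with each of Abcam133737, Abcam76013 and Abcam133638, with folds of 3.71, 3.65 and 3.88, and no Millipore07-601 peak. Millipore07-601, which elsewhere gave among the most peaks, had none in the whole Jag2 window.

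Dll4, the Delta-like ligand of arterial and sprouting endothelium, had 9 regions (gene at chr2:119325784-119335666), of which 2 had all 4 antibodies. The stronger, chr2:119329088-119329518, lay inside the gene, 3.50 kb after the start. Pileups were 35 tags with Abcam133737, 39 with Millipore07-601, 35 with Abcam76013 and 42 with Abcam133638. The folds were 7.41, 8.46, 7.31 and 9.27, a mean of 8.11 ± 0.93, and all 4 antibodies lay above the genome-wide median of 7.14. The other, chr2:119350880-119351360, covered the start of Chac1, with a mean of 5.24 ± 1.20. The region over the printed Dll4 promoter, chr2:119325608-119325836, had 19 tags with Abcam76013 and 26 with Abcam133638, with folds of 4.06 and 5.82. Abcam133638 had a peak in all 9 regions of Dll4, against 3 for Abcam133737, 5 for Millipore07-601 and 3 for Abcam76013.

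Dll1, the Delta-like ligand known from somites and neural progenitors, had 2 regions (gene at chr17:15367354-15376932). The only four-antibody region, chr17:15395997-15396400, covered the start of Fam120b, 19.3 kb from Dll1 and just inside the 20 kb limit. Pileups there were 23, 20, 22 and 25 tags with Abcam133737, Millipore07-601, Abcam76013 and Abcam133638, and folds of 4.94, 4.44, 4.67 and 5.60 gave a mean of 4.91 ± 0.50. The other region was a peak of Abcam133638 alone with 19 tags and a fold of 3.84. No peak of any antibody lay inside Dll1.

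Among the targets, Hes1 had the densest binding of the 10 genes. Hes1 is a repressor switched on by Notch in many tissues and is known in the airway for holding back neuroendocrine fate. Around this short gene (chr16:30065357-30067796) lay 15 regions, of which 10 had all 4 antibodies, 1 had 3, 2 had 2 and 2 had 1. This is 23.6 four-antibody regions per 100 kb. Of 21631 genes only 6 were as dense: Cldn3, Sftpc, Irf2bpl, Btg2, Lgi3 and Hes1 itself, of which Sftpc and Lgi3 are neighbours that share regions. All 10 regions had Hes1 as the nearest protein-coding gene, and no other protein-coding gene lay within 20 kb.

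All 10 lay outside the gene, 9 on the side of lower coordinates, from 19.6 kb to 0.086 kb away, and 1 on the other side. The strongest, chr16:30056870-30057353, was 8.22 kb away on the lower-coordinate side. Pileups were 91 tags with Abcam133737, 129 with Millipore07-601, 96 with Abcam76013 and 101 with Abcam133638. The folds of 17.1, 25.8, 18.1 and 19.6 gave a mean of 20.2 ± 3.90, number 1447 of 31606. Every antibody lay above the bound of the strongest 10%. The next, chr16:30058855-30059834, 6.23 kb away on the same side, had folds of 11.7, 22.0, 12.3 and 18.1, a mean of 16.0 ± 4.91. The region chr16:30060164-30060829, 4.70 kb away, had a mean of 13.2 ± 2.87.

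The region at the lower-coordinate end of Hes1, chr16:30065045-30065472, was weaker, with pileups of 23, 25, 16 and 23 tags and folds of 4.94, 5.50, 3.45 and 5.17. The region on the higher-coordinate side, chr16:30069579-30070452, 2.04 kb beyond the gene, had a mean of 12.7 ± 2.65. In 1 region, chr16:30053046-30053426, Millipore07-601 had the lowest fold, 2.31 with 20 tags. Its background there was 8.08 tags, 2.17 times its genome-wide value, which can likewise rest on very few tags of the scaled-up input. The peaks inside Hes1 were called with 2 or 3 antibodies, with Abcam76013 in none of them.

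**Figure D4:**
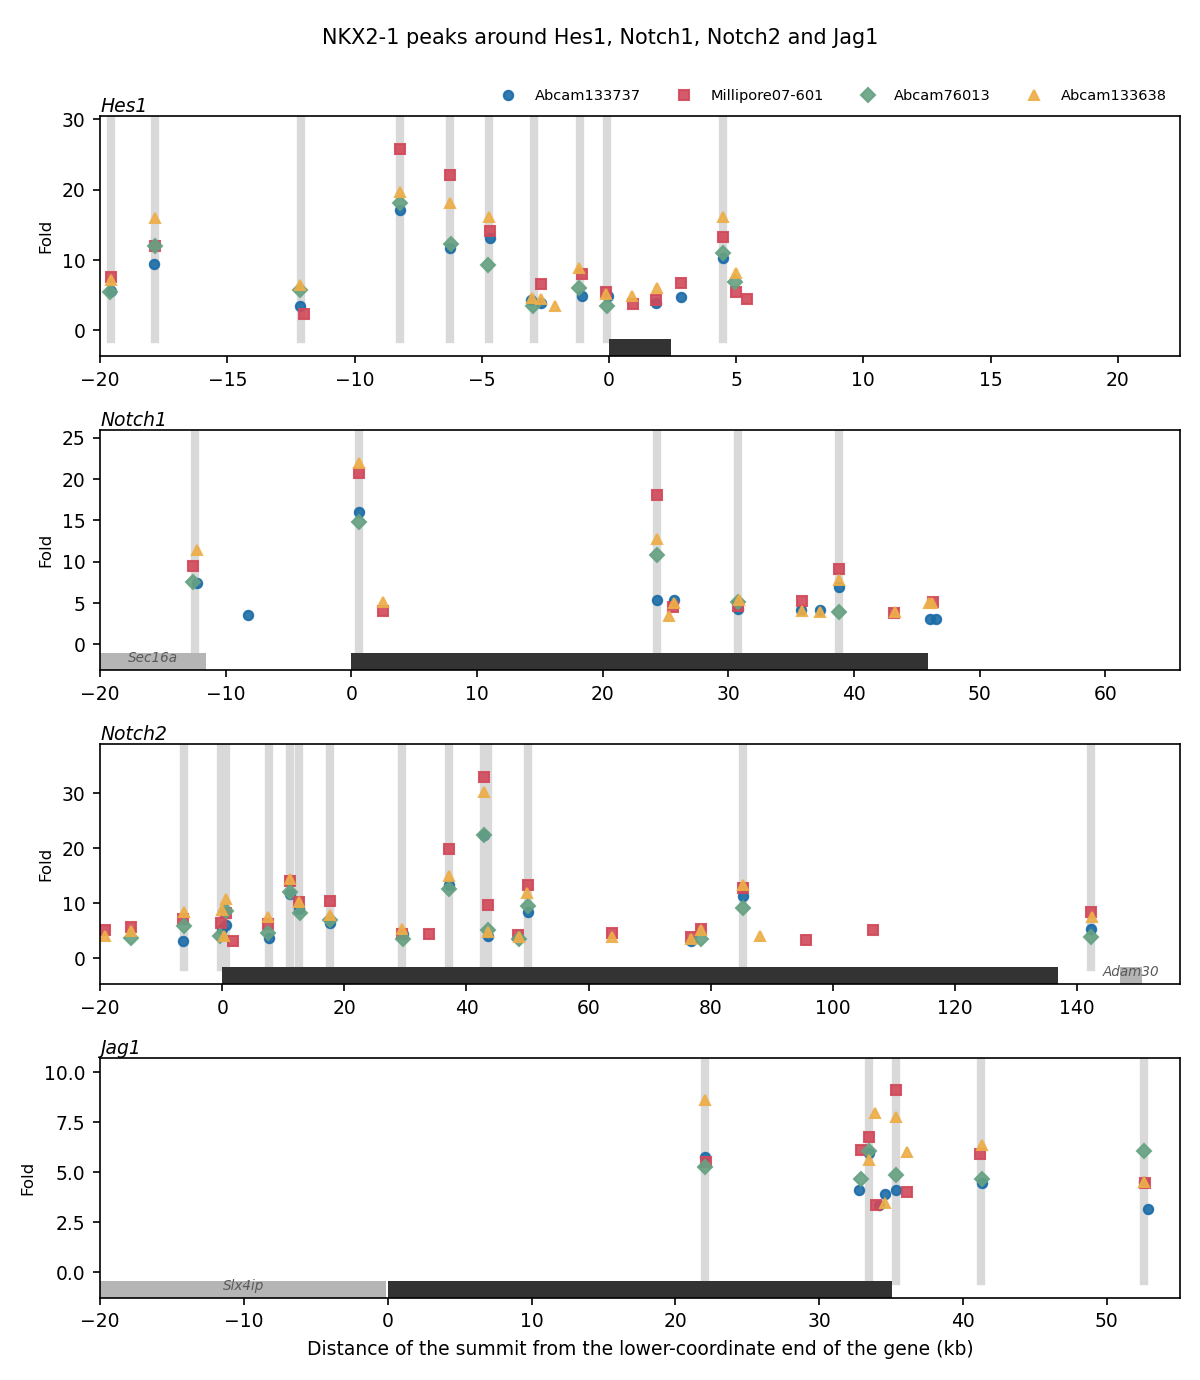
Peaks around Hes1, Notch1, Notch2 and Jag1, with the distance of each summit from the lower-coordinate end of the gene (horizontal axis, kb) against its fold enrichment (vertical axis, ratio to input background). Symbols are the 4 antibodies, grey vertical bands mark four-antibody regions, the black bar is the gene and grey bars are neighbouring genes. At Hes1 the highest folds lie 8.22 to 4.70 kb to the left of the gene, at Notch2 42.9 kb inside it and at Notch1 next to its lower-coordinate end, while at Jag1 no peak exceeds a fold of 10.

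Hey1, the other target, which encodes a repressor of vessels and heart, had 1 region, at the higher-coordinate end of the gene (gene at chr3:8663359-8667038). At chr3:8666781-8667171 Abcam133737 had 19 tags with a fold of 4.12, and Abcam133638 had 20 tags with a fold of 4.04. Millipore07-601 and Abcam76013 had no peak in the Hey1 window. Hes1 and Hey1 thus stood at opposite ends of the range of the 10 genes, with 10 and 0 four-antibody regions in windows of 42.4 and 43.7 kb.

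In the order of their strongest four-antibody region, the genes ran from Notch2 (mean fold 27.0) through Hes1 (20.2), Notch4 (19.2, at Ager), Notch1 (18.4), Dll4 (8.11), Jag1 (6.46) and Notch3 (5.50) to Dll1 (4.91, at Fam120b). From Hes1 to Notch1, and again from Dll4 to Dll1, neighbours in this order differed by less than the larger of their SDs over the antibodies. The steps from Notch2 to Hes1 and from Notch1 to Dll4 were larger than both SDs. The same antibody libraries measured every region, so these SDs include differences between antibodies that recur from region to region. They do not give the uncertainty of a step between genes, and the steps were not tested.

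By position, 20 of the 45 four-antibody regions lay inside the Notch gene and 25 outside, with 36 (80%) nearest to the Notch gene and 9 nearest to another. Within 1 kb of an end of a gene, Notch gene or not, lay 13 (28.9%), against 22.5% of all four-antibody regions. Within 1 kb of a transcription start lay 9 (20%), against 19.2% of all. Of the 5 regions among the strongest 10%, 2 had a gene end at most 1 kb away, at the lower-coordinate end of Notch1 and at Ager. For the strongest 10% over the genome this share was 11.1%, and the difference was not tested. The summits of the antibodies coincided closely: in the 40 regions with exactly 1 peak per antibody, the outermost summits were a median of 59.5 bp apart, from 8 to 277 bp, against a median of 45 bp over all such regions.

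The antibodies that were strongest at these regions were the pair that was strongest over the genome. Scaled to the filtered tags of its library, the summit signal was highest with Millipore07-601 or Abcam133638 in 43 of the 45 regions (95.6%), against 97.1% of all four-antibody regions. Abcam133638 was the highest in 22 (48.9%, against 31.6% of all) and Millipore07-601 in 21 (46.7%, against 65.5% of all). Abcam133737 was the lowest in 25 and Abcam76013 in 16. The highest signal was a median of 1.63 times the lowest, against 1.68 times over all four-antibody regions. The same pair gave most of the regions that other antibodies missed: of the 24 regions with 1 antibody, 14 were of Abcam133638, 8 of Millipore07-601 and 2 of Abcam133737. Over the genome 43.5% of such regions were of Abcam133638, 44.4% of Millipore07-601 and 5.87% of Abcam133737. Of the 15 regions with 2 antibodies, 10 were of Millipore07-601 with Abcam133638, a pair that made up 63.8% of such regions over the genome.

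Other genes of the pathway were read from a list of 64, grouped by role. A four-antibody region lay within 20 kb of 53 of them (82.8%), was nearest to 48 (75.0%) and was among the strongest 10% for 10 (15.6%). The shares of all genes are the 64.8%, 50.0% and 14.0% given above, and the differences were not tested. The 64 genes were not matched to other genes by expression, which was not measured here. The nuclear complex and the proteases stood at the top: all 14 genes of the complex on DNA (RBPJ, its coactivators and corepressors) and all 8 protease genes had one. They were followed by glycosylation with 4 of 5, ubiquitin ligases and trafficking with 11 of 14, other targets with 13 of 17 and ligand-like genes with 3 of 6. The median window of the 64 genes was 63.1 kb, and their median was 3.01 four-antibody regions per 100 kb, against a median of 1.80 over all genes and 4.91 over the 10 Notch genes.

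The strongest region of the wider pathway was at a gene of the nuclear complex. Maml3, a Mastermind coactivator, had 23 four-antibody regions, a count not scaled to the length of its window. The strongest lay inside the gene at chr3:51947101-51947655, with a mean fold of 29.9. Rbpjl, which encodes a relative of RBPJ, had a best mean fold of 19.5 in a region it shares with Matn4. Rbpj itself, the DNA-binding partner of every Notch receptor, had 4 four-antibody regions. The strongest, 13.0 kb outside the gene, had a mean fold of 15.4.

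In each of the other roles the 3 highest mean folds follow, with the nearest gene where it was not the gene itself. Among the proteases that cleave the receptor the highest was near Psen2, a catalytic subunit of gamma-secretase (17.8, 16.3 kb outside the gene). The next were near Adam17, which makes the outer cut (13.2, nearer to Iah1), and at Psenen, another gamma-secretase subunit (12.5). Among the ubiquitin ligases and trafficking genes the highest was near the Deltex gene Dtx3 (18.9, nearer to Pip4k2c). The next were near Numb, which encodes an inhibitor of Notch (18.5, 4.36 kb outside the gene), and near Dtx4 (15.5, nearer to Mpeg1). Among the enzymes that glycosylate Notch the 3 highest were near Pofut1 (18.96, nearer to Plagl2), Rfng (15.0, nearer to Dus1l) and Poglut1 (11.3, nearer to Timmdc1). None of these 3 was the nearest gene of its best region. Among further targets the 3 highest were near Hes5 (18.4, nearer to Pank4), Hes2 (14.2, 5.77 kb outside the gene) and Hes7 (11.1, nearer to Aloxe3). Ligand-like genes had the lowest values, with 8.36 near Dll3 (nearer to Timm50), 6.83 near Mfap5 (nearer to Rimklb) and 6.19 at Dlk2.

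**Figure D5:**
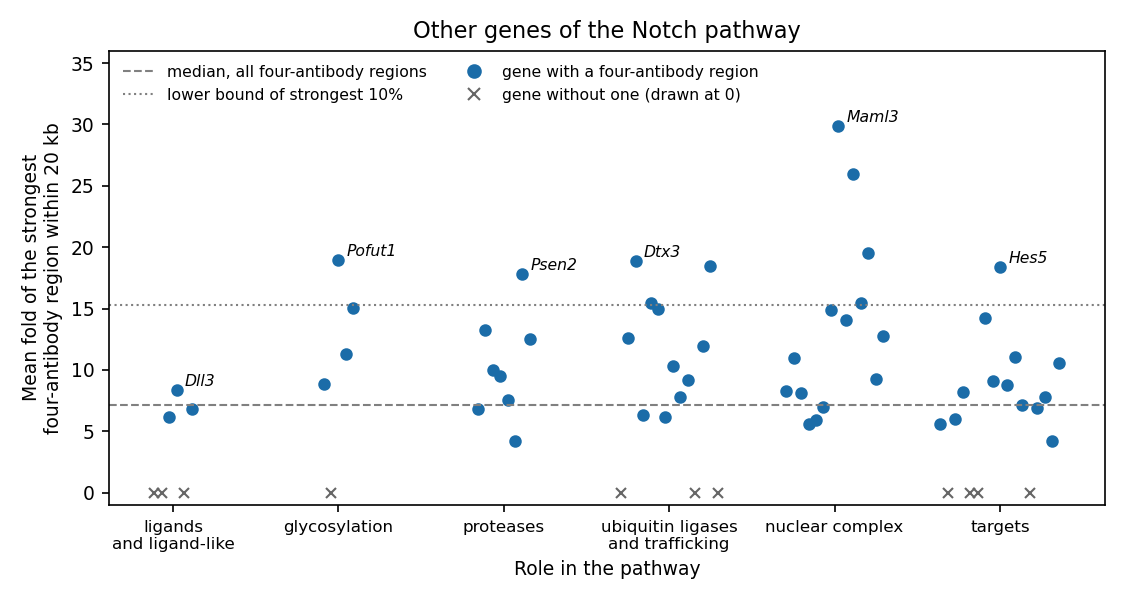
Mean fold over the 4 antibodies (vertical axis, ratio to input background) of the strongest four-antibody region within 20 kb of each of 64 further genes of the pathway, grouped by role (horizontal axis); crosses at 0 are genes without such a region, the dashed line is the median of all four-antibody regions (7.14) and the dotted line the lower bound of the strongest 10% (15.3). All genes of the proteases and the nuclear complex have a region, and the highest value is that of Maml3 (29.9). The gene with the highest value of each role is labelled.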

How the data were processed

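The deposited peak tables of 4 NKX2-1 antibodies, 1 library each, were used. Per the file headers, MACS 2.1.2 called each antibody's peaks against 1 shared input at a q cutoff of 0.05, keeping 1 tag per position, scaling the input up and taking an effective genome of 1.87 Gb. The submitters' processing notes name FastQC, Trimmomatic, Bowtie, SAMtools, MACS2, deepTools and mm10, and other versions are not given in the sources used here. Per the file headers, each peak carries a summit pileup (signal, in tags), a fold enrichment (a ratio to background) and, as −log10, its p-value and q-value. These values are the authors' own.

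Peaks were merged and assigned with Python 3.11.15, pandas 2.3.3 and numpy 2.4.6, and the script was tested on simulated peaks. Each antibody is represented in a region by its peak of highest fold. The background of a peak, local or genome-wide, is (pileup + 1) / fold − 1. Distances run from the mean summit, and strand comes from the RefSeq promoter table. Exons, and sequence outside promoters, were not used here. The text names every Notch gene with its 3 strongest four-antibody regions, all regions where it has none, and the 3 strongest genes of each other role, apart from results that are not reported here. Other regions were chosen after their values were seen. The genes and lists were chosen with earlier results of these data known. Alternatives were other windows, thresholds and overlaps, each antibody left out, the nearest gene only, and other scalings.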

Additional observations from a re-analysis of the deposited data

How the results depend on the processing

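With 1 library per antibody, no value has a replicate check, and the distance to a gene does not show which gene a region acts on. Of the alternatives for the summary values, 60 stayed within 1.5 times the main count or within the spread and 11 did not. With the window cut to the gene itself, the 97 regions became 48, the 45 four-antibody regions 21, the 8 Notch genes with one 5, and the 53 further pathway genes with one 33. A 5 kb window left 29 four-antibody regions. A fold of at least 5 left 62 regions, 24 four-antibody regions and 3.26 per 100 kb in place of 6.12. The median over genes of the strongest mean fold, 13.3, was 8.11 with a 50 kb window and 7.995 without Millipore07-601, both over 9 genes in place of 8. Within 0.5 kb of a gene end lay 8 regions in place of 13. Under the 50 kb window the strongest mean fold of single genes moved to 5.57 for Dll1, 26.3 for Hes1 and 30.4 for Notch4. Regions were not compared in pairs within each antibody. With 1 library per antibody there were no replicates, and no test was run.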
